A study of Mus musculus with 13 samples.

Results

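The 9 genes described here are those of the cytotoxic program of T and natural killer (NK) cells: Gzma, Gzmb, Prf1, Nkg7, Ctsw, Ifng, Cd160, Klrd1 and Cd7. They were picked by symbol from the gene list of the deposited count matrices, where all 9 of them were found among 32285 genes. The libraries are droplet-based single-cell RNA sequencing of 10 colon tumors and 3 samples of the adjacent colon mucosa. They come from 3 mice, named A, B and C here, with 4 tumors from mouse A, 2 from mouse B, 4 from mouse C and 1 mucosa sample from each. All of these mice carried ApcMin/+ and p16cis/cis on C57BL/6J and ate a diet supplemented with folate and cofactors, so tumors and mucosa share genotype and diet. The labels give ages of 24, 23 and 20 weeks for mice A, B and C. Mucosa was dissociated with EDTA and TrypLE and tumors with a tumor dissociation kit, so tissue and dissociation protocol cannot be told apart in any comparison below.

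Cytotoxic lymphocytes kill by secreting granules that hold perforin (Prf1), which opens the membrane of the target, and granzymes (Gzma, Gzmb), serine proteases that then enter it. Nkg7 is a granule membrane protein, Ctsw a cysteine protease of cytotoxic lymphocytes, and Ifng encodes interferon gamma, the cytokine these cells release toward macrophages and epithelium. Cd160, Klrd1 (CD94, the partner of the NKG2 receptors) and Cd7 are surface proteins of NK cells and of the intraepithelial T cells that sit between the epithelial cells of the normal gut.

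The libraries held 57221300 to 116133079 UMIs (unique molecular identifiers, 1 per captured RNA molecule), and 4846 to 9695 cells of each were retained. At most 61 cell barcodes were shared by any pair of libraries (0.561% of the smaller one). Y-linked transcripts were present in all 13 libraries and Xist had 1 to 8 UMIs in each, although 7 libraries are labelled female and libraries of 1 animal carry different sex labels. Sex was therefore not used. T and NK cells, named from clusters that were built without the 9 genes, numbered 7666 in tumors and 4865 in mucosa. Cd3e, a chain of the T cell receptor complex, had a UMI in 63.9% of the CD8 alpha beta T cells described below and in 3.67% and 1.73% of the cells of the 2 NK clusters.

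The genes lie on 8 chromosomes of GRCm38/mm10. Gzma is at chr13:113093825-113100981 and Gzmb at chr14:56258838-56262260, both on the minus strand. Gzmb stands beside the related genes Gzmc, Gzmd, Gzme, Gzmf, Gzmg and Gzmn, so the division of reads among these near copies is uncertain. Cd160 is at chr3:96798763-96829351 on the minus strand and overlaps Pdzk1 on the plus strand, and Cd7, at chr11:121036747-121039418, overlaps an antisense gene. Ctsw on chromosome 19 overlaps Fibp on the other strand.

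Promoters are shown for the granzymes, which were called lower in the pool of T and NK cells but in none of its 4 tested groups, and for Cd160, which was called in 3 of them. Each is the 250 bases before a RefSeq transcript start (GRCm38.p6), 5′ to 3′ on the strand of the gene. Capitals mark the letters of the RUNX motif (TGTGGT or its reverse complement ACCACA) and of the T-box motif (GGTGTG or CACACC), which were chosen with the results known. RUNX and T-box factors are regulators of cytotoxic lymphocytes. The windows are chr13:113100982-113101231, chr14:56262335-56262584, chr3:96829352-96829601 and chr3:96814522-96814771, all on the minus strand.
Gzma: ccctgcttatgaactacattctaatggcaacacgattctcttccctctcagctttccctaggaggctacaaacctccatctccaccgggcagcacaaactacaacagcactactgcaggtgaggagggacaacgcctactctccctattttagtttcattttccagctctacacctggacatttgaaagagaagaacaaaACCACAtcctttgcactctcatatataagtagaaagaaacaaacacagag
Gzmb: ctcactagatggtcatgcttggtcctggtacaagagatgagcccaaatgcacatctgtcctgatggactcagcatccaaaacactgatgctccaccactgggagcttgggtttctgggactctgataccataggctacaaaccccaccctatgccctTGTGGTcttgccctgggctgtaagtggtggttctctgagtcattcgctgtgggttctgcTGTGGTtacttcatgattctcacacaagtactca
Cd160, start 1: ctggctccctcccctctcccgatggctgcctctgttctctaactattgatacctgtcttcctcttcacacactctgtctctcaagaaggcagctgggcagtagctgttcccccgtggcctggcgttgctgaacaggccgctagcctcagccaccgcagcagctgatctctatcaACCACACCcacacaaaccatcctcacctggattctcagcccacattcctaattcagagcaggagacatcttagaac
Cd160, start 2: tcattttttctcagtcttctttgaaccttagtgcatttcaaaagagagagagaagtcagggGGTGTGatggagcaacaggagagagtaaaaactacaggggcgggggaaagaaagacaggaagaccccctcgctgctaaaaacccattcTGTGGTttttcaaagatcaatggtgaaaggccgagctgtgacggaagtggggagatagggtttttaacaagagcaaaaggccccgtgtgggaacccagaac

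RefSeq windows were found for 6 of the 9 genes, 7 windows in all. The RUNX letters stood in the windows of Gzma, Gzmb, Prf1, Nkg7 and Cd160, against 14.0% of all 32851 windows of this length, and the T-box letters in those of Nkg7 and Cd160, against 16.3%. In the window of the first Cd160 start both motifs overlap in the run ACCACACC, and the window of the second start lies within the annotated gene. The window of Ifng held neither set of letters. These matches are a description of the letters only.

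The first comparison asks how much of each transcript the T and NK cells of a tumor held against those of the mucosa. UMIs were summed over all T and NK cells of a library and given as CPM (UMIs of the gene per 1000000 UMIs of the sum), which compares genes without a length term because each molecule is counted once at its 3′ end. In such sums, fewer cells of a type and less RNA per cell cannot be told apart. In tumors 7 of the 9 transcripts were lower by the quasi-likelihood test of edgeR with Benjamini-Hochberg adjustment over 10684 genes, where 20.9% of all genes were called lower, and none was higher. For all 7 of them every tumor lay below every mucosa sample, which held for 20.1% of all genes. The lower level of a cluster led by Cd160, Gzma and Cd7 was known from an earlier analysis of the same libraries, so the pooled result is not independent of it.

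Of the granzymes, Gzma was the most abundant transcript of the 9 in mucosa, with 6505, 11152 and 9249 CPM in mice A, B and C. The tumors ranged from 529.3 to 3463 CPM with a median of 2052. No tumor reached the lowest mucosa sample, and the mean was 4.49-fold lower, 1997 ± 566 (SD over 3 mice) against 8969 ± 2336 CPM (log2 fold change −1.96, SE 0.39, adjusted p 0.0012 by edgeR). Gzmb stood at 1073, 1686 and 1556 CPM in mucosa and at 337.1 to 897.2 CPM (median 607.8) in tumors. The groups did not overlap, and its log2 fold change was −1.07 (SE 0.26, adjusted p 0.0032 by edgeR).

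Prf1, the pore-forming partner of the granzymes, was at 77.39, 74.81 and 40.43 CPM in mucosa and at 17.99 to 70.14 CPM (median 26.34) in tumors. Of the tumors 9 lay below all mucosa samples, while tumor 4, from mouse C, exceeded the mucosa of that animal. The difference missed the threshold (log2 fold change −0.83, SE 0.35, adjusted p 0.0718 by edgeR). Without tumor 4, or with DESeq2, with doublets kept or with cells chosen by receptor UMIs, Prf1 was called lower.

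Nkg7 and Ctsw were lower as well. Nkg7 was at 2125, 1840 and 1763 CPM in mucosa and at 437.8 to 956.7 CPM (median 639.2) in tumors. Its log2 fold change was −1.32 (SE 0.21, adjusted p 4.85e-05 by edgeR), with no overlap. Ctsw was at 940.9, 1077 and 1105 CPM in mucosa and at 222.3 to 435.6 CPM (median 301.7) in tumors. It fell with a log2 fold change of −1.54 (SE 0.19, adjusted p 3.5e-06 by edgeR), again in all 10 tumors.

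Of the surface proteins, Cd160 and Cd7 had the largest log2 fold changes of the 9. Cd160 was at 753.3, 772.6 and 728 CPM in mucosa and at 43.23 to 120.1 CPM (median 74.64) in tumors. The 3 mucosa samples differed little, and the tumor mean was 10.5-fold lower, 71.9 ± 18.2 against 751.3 ± 22.4 CPM (log2 fold change −3.13, SE 0.22, adjusted p 1.48e-08 by edgeR). Cd7 was at 2061, 1928 and 1695 CPM in mucosa and at 83.04 to 261.7 CPM (median 199) in tumors. Its mean was 10.95-fold lower, 173 ± 29 against 1895 ± 185 CPM (log2 fold change −3.22, SE 0.27, adjusted p 3.39e-07 by edgeR). Klrd1 was at 729.8, 948.4 and 818.9 CPM in mucosa and at 231.1 to 464.8 CPM (median 342.4) in tumors. Its groups did not overlap either, with a log2 fold change of −1.15 (SE 0.17, adjusted p 1.46e-05 by edgeR).

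Ifng did not follow the 7 transcripts called lower. It was at 120.5, 190.5 and 135.5 CPM in mucosa and at 80.64 to 603.4 CPM (median 267.4) in tumors. Of the tumors 7 lay above all mucosa samples and tumor 3 below all of them, and the log2 fold change of 1.16 (SE 0.53, adjusted p 0.0994 by edgeR) missed the threshold. Without tumor 3, with the tumors of each mouse summed or with DESeq2, Ifng was called higher.

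**Figure D1:**
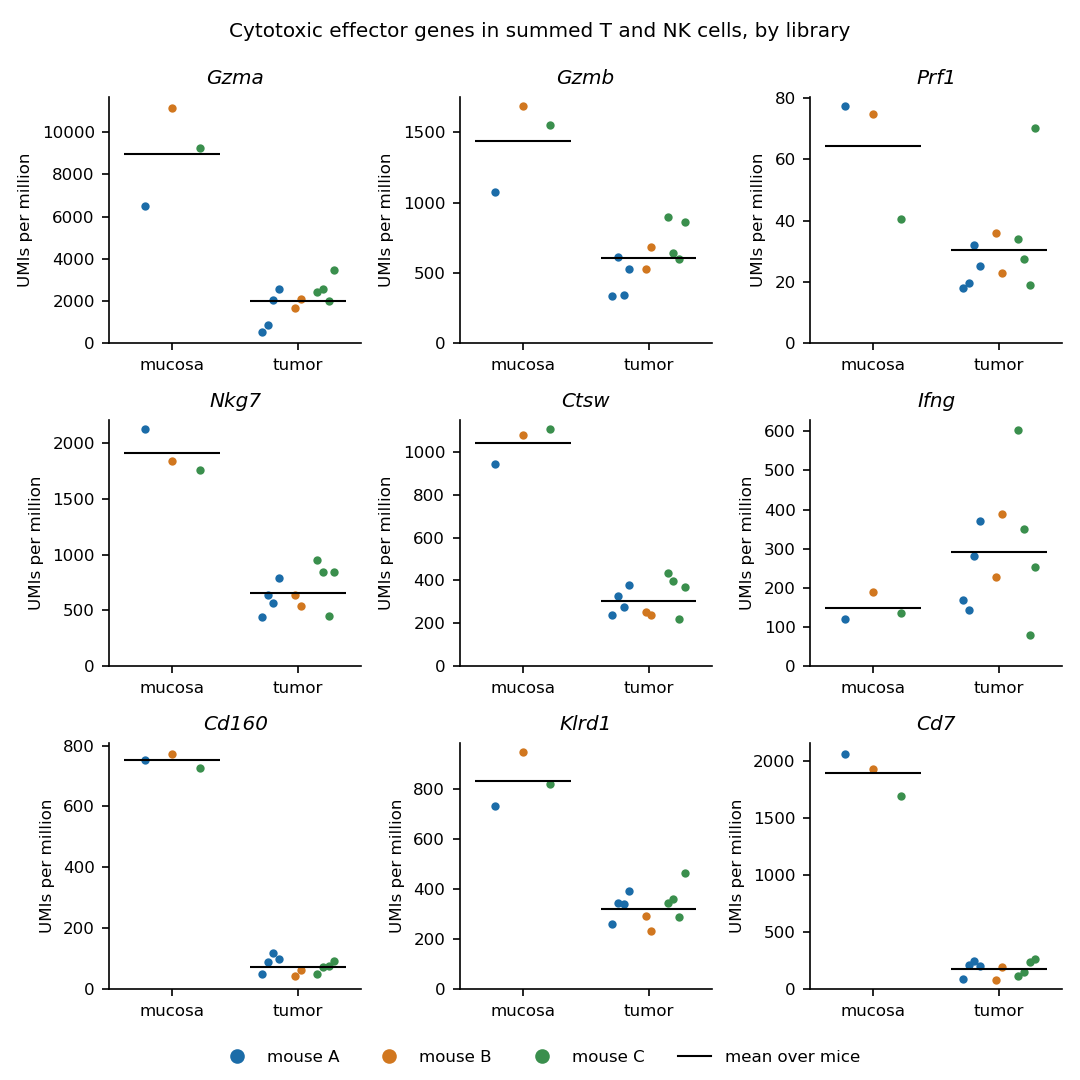
Level of each of the 9 transcripts in summed T and NK cells of each library, in CPM on a linear axis from 0, with mucosa on the left, tumors on the right, points colored by mouse and a line at the mean over mice. The tumors sit below all 3 mucosa samples for 7 transcripts, overlap them for Prf1 through tumor 4 at 70.1 CPM, and spread from 80.6 to 603.4 CPM around the mucosa for Ifng.

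Other RNA differed between the same sums. The 15 genes of tissue dissociation stress were all higher in tumors, with a summed level of 5173 to 7174 CPM against 2401 to 2590 CPM. The 7 epithelial genes were all lower (62.4 to 185 CPM against 248 to 2738 CPM), and 4 of 6 myeloid genes were higher (137 to 717 CPM against 17.8 to 29.9 CPM), S100a8 and S100a9 by log2 fold changes of 7.05 and 7.94. Their part in the result was not tested. One mucosa-rich cluster, of 1300 mucosa and 44 tumor cells, was led by epithelial genes such as Reg3b and Lgals4. Without it the same 7 transcripts were called lower, against 19.6% of all genes.

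The rest of the cytotoxic machinery was uneven, against a median log2 fold change of −0.01 over all 10684 genes, of which 2233 rose and 2231 fell. The median over the 9 transcripts was −1.32. The 6 tested granzymes outside the 9 had a median log2 fold change of 1.997, opposite in sign to Gzma and Gzmb. Only Gzmm was called among them. It was higher at a low level (2.91 against 1.02 CPM), a call lost without mucosa sample 2 or 3 (adjusted p 0.063 and 0.0724 by edgeR). Among 9 genes of granule storage, maturation and release 4 rose and 3 fell (median −0.02). Stx11, a SNARE protein of granule fusion, was at 64.9 against 14.1 CPM in the pool, but at 13.4 against 13.8 CPM in the Cd8a Itgae T cells described below, and of the 4 groups could be tested only in CD4 T cells, where it was higher (log2 fold change 1.28). Lyst, needed for granule sorting, had a log2 fold change of 1.25. Of 4 granzyme inhibitors 3 rose (median 1.80), with Serpinb9, the inhibitor of granzyme B, at 152 ± 21.4 against 38.4 ± 2.07 CPM (log2 fold change 2.14, adjusted p 9.25e-06 by edgeR) and Serpinb9b at a log2 fold change of 2.56, a call lost without mucosa sample 3 (adjusted p 0.0588 by edgeR) and with cells chosen by receptor UMIs (0.0523).

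Among 6 death ligands and effector cytokines 3 fell and 1 rose (median −0.44). Tnfsf10, the ligand TRAIL, was at 25.2 against 125 CPM and the chemokine Xcl1 at 151 against 446 CPM. The Xcl1 call (adjusted p 0.0319 by edgeR) was lost without mucosa sample 1 (0.208), mucosa sample 2 or tumor 5, with no filter on low counts and with tumors summed, and Xcl1 was called in none of the 4 cell groups described below. Of 14 NK receptors and co-receptors 8 fell and none rose (median −0.94), Cd244a from 133 to 10.0 CPM and Crtam from 49.0 to 8.97 CPM. Of 8 transcription factors 4 rose and 1 fell (median 0.46), with Nfil3 at 74.5 against 20.1 CPM and Prdm1 at a log2 fold change of 1.29. Within the groups described below, Prdm1 was tested in CD8 alpha beta T and CD4 T cells and called in neither (0.22 and 0.79, adjusted p 0.795 and 0.0994 by edgeR). Of 11 genes of the interferon gamma and interleukin axis 6 rose and none fell (median 0.57), Ifngr1, a chain of the interferon gamma receptor, from 352 to 794 CPM and Il18r1 from 50.3 to 184 CPM. Ifngr1, Nfil3, Serpinb9 and Tnfsf10 were called in the same direction in all 4 cell groups, and Il18r1 in 3 of them but not in CD4 T cells (235 against 249 CPM, log2 fold change 0.07, adjusted p 0.852 by edgeR). Some of these calls could be lost by leaving out 1 library: Tnfsf10 in CD8 alpha beta T and CD4 T cells (adjusted p up to 0.145 and 0.446 by edgeR) and Serpinb9 in CD4 T cells (up to 0.0652). Alternative settings also lost both Tnfsf10 calls and that of Nfil3 in NK cells. Of 4 ligands of the surface receptors 1 could be tested and was not called.

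T and NK cells were next split into groups by markers, again without the 9 genes. Cd8a Itgae T cells are those with Cd8a but little Cd8b1 and with the epithelial integrin Itgae. In mucosa they formed a cluster led by Ccl5 and Tcrg-V7 (1718 cells) and one led by Id3 and Klra6 (596 cells), in tumors mostly a cluster led by Nr4a2 and Klra5 (537 tumor and 48 mucosa cells). The mucosa clusters met the marker rule for gamma delta T cells, but Trdc had a UMI in only 46.4% and 14.96% of their cells, so the name was not used. Cd8a Itgae T cells were 47.9% of the T and NK cells of mucosa and 7.30% of those of tumors (means over mice). CD4 T cells, regulatory ones included, were 7.38% and 41.9%.

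The cells that held each transcript differed between the tissues. Cd8a Itgae T cells held 69.0% of the Gzma UMIs of mucosal T and NK cells and 39.8% of those of tumors. The mucosal share ran from 43.1% to 92.8% over 3 mice, and another 26.0% ± 24.1 (SD) was in clusters with no group name, which include the one led by epithelial genes. In tumors Gzmb was spread over CD8 alpha beta T cells (23.5%), CD4 T cells (23.3%), Il17a T cells (20.7%) and Cd8a Itgae T cells (20.4%), whereas the last held 62.2% in mucosa. NK cells held 48.6% of the Prf1 UMIs of tumors (41.1% to 62.3% over 3 mice) and 21.7% of those of mucosa. Of Ifng, CD4 T cells held 50.7% in tumors (28.6% to 64.3% over 3 mice) and 16.6% in mucosa. NK cells held 21.6% of it in tumors (5.07% to 48.8% over 3 mice). Cd8a Itgae T cells held 63.1% of Cd7 in tumors and 67.7% in mucosa. These shares depend on both the number of cells in each group and the level in those cells, and group sizes were not tested.

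**Figure D2:**
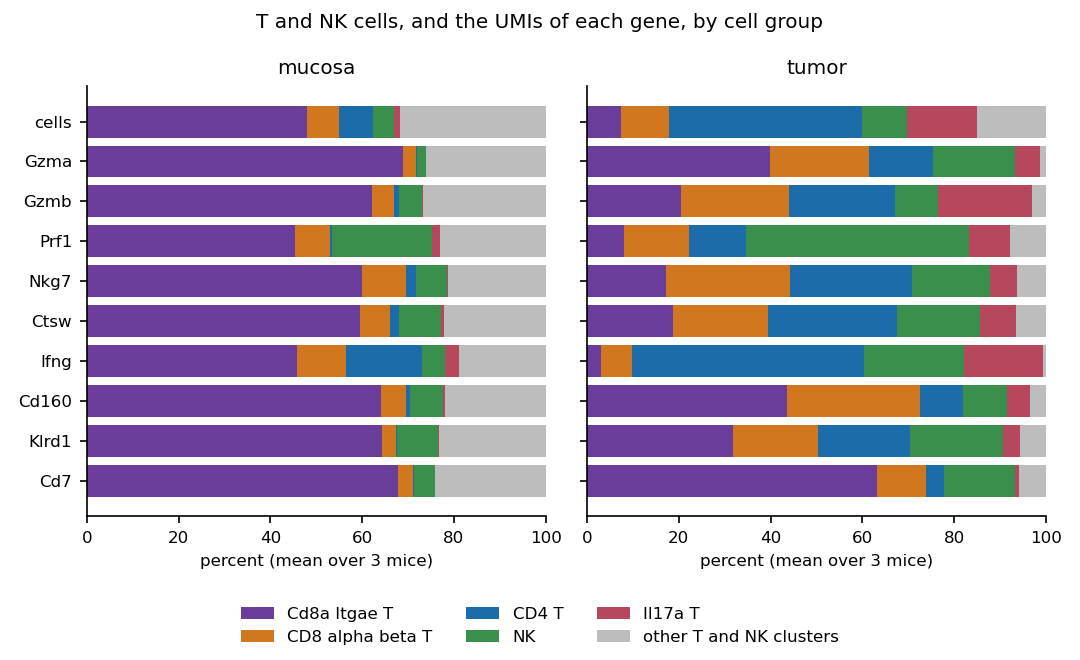
Stacked bars of the percent of T and NK cells (top bar) and of the UMIs of each of the 9 transcripts that came from each cell group, in mucosa (left) and tumors (right), as means over 3 mice. Cd8a Itgae T cells hold 47.9% of mucosal cells and 7.30% of tumor cells but 39.8% of Gzma UMIs and 63.1% of Cd7 UMIs in tumors, and CD4 T cells hold 50.7% of tumor Ifng UMIs.

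Within the Cd8a Itgae T cells, 5 of the 9 transcripts were called lower in tumors and none higher, against 11.8% of 3978 genes called lower. Cd160 was at 961.7, 925.2 and 931.3 CPM in the mucosa of mice A, B and C and at 198 to 499.5 CPM (median 420.3) in tumors. No tumor reached the mucosa, which held for 9.25% of genes (log2 fold change −1.15, SE 0.17, adjusted p 6.46e-06 by edgeR). Cd7 was at 2693, 2380 and 2380 CPM in mucosa and at 637.1 to 1833 CPM (median 1437) in tumors, a log2 fold change of −0.80 (SE 0.22, adjusted p 0.00883 by edgeR) without overlap. Ctsw was at 1108, 1208 and 1311 CPM in mucosa and at 492.3 to 908.9 CPM (median 749.6) in tumors. It did not overlap either (log2 fold change −0.60, SE 0.17, adjusted p 0.0077 by edgeR), but the call was lost without mucosa sample 1 (adjusted p 0.0646 by edgeR).

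The calls of Nkg7 and Prf1 in these cells were weaker. Nkg7 ranged from 984.6 to 2058 CPM in tumors and from 1921 to 2704 CPM in mucosa, with overlap at tumor 10 (log2 fold change −0.54, SE 0.19, adjusted p 0.0341 by edgeR). Prf1 rested on 74 tumor UMIs (log2 fold change −0.87, SE 0.31, adjusted p 0.0383 by edgeR), and with the mouse as a block its adjusted p was 0.0504. With DESeq2, with tumors summed and with cells chosen by receptor UMIs neither was called. Leaving out 1 library at a time kept 5 of 13 calls for Nkg7 and 4 of 13 for Prf1. Gzma spread from 1413 to 19761 CPM in tumors and from 8277 to 13787 CPM in mucosa, with 5 tumors below all mucosa samples, 2 above all and 3 within their range (log2 fold change −0.34, SE 0.54, adjusted p 0.685 by edgeR). Gzmb and Klrd1 were not called, with log2 fold changes of −0.31 and 0.38. Ifng was below all mucosa samples in 9 of 10 tumors and above them in tumor 7, and was not called (log2 fold change −0.22, adjusted p 0.826 by edgeR). Without tumor 7 it was called lower (−1.11, adjusted p 9.72e-05 by edgeR), as it was with DESeq2 (−1.05) and with cells chosen by receptor UMIs (−1.23).

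The 2 tissues contribute different clusters to this group. The mucosal cluster led by Ccl5 held 16084 CPM of Gzma and that led by Id3 only 502 CPM, while both had Cd160 (869 and 1156 CPM) and Cd7 (2588 and 2288 CPM). The cluster led by Nr4a2 had 9609 CPM of Gzma, 364 CPM of Cd160 and 1291 CPM of Cd7 in tumors. In mucosa only 1 library held at least 20 cells of it, 24 cells with 4371, 1083 and 1547 CPM. The summed stress genes were at 4462 to 6230 CPM in the tumor cells of this group and at 2432 to 2645 CPM in mucosa. All 4 tested epithelial genes were lower (60.5 to 189 against 266 to 2205 CPM) and all 3 tested myeloid genes higher (107 to 1215 against 2.68 to 23.7 CPM). Their part in the result was not tested.

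Gamma delta T cells could be compared only when chosen by receptor UMIs (Trdc with Cd3 transcripts and no Cd4 or Cd8b1), 521 in tumors and 1159 in mucosa. These came from different clusters by tissue. The cluster led by Trdv4 and Cd163l1 gave 48.4% of them in tumors and 3.02% in mucosa, and the one led by Ccl5 and Tcrg-V7 gave 1.15% and 68.5%. Of the 9 transcripts 7 were then lower, against 8.17% of 5217 genes called lower. The mucosa samples of mice A, B and C had 703.1, 733.5 and 888.7 CPM of Cd160, and the tumors had 37.81 to 195.3 CPM (median 98.1). Cd7 was at 2147, 2133 and 2393 CPM in mucosa and at 98.7 to 859.2 CPM (median 351) in tumors. Every tumor lay below the mucosa for both, as for 6.44% of genes (log2 fold changes −2.74 and −2.40, SE 0.34 and 0.40, adjusted p 2.74e-05 and 0.000724 by edgeR). Nkg7, Ctsw, Klrd1, Prf1 and Ifng were lower by log2 fold changes of −1.85, −1.93, −1.05, −0.85 and −1.27. The granzymes were not called, Gzma at −1.61 (adjusted p 0.19 by edgeR) and Gzmb at −0.06 (adjusted p 0.97).

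Without the cells of the Trdv4 cluster, in 8 tumors with at least 20 cells left, only Cd160, Cd7, Ctsw and Nkg7 were called lower, against 4.21% of 3019 genes. Their log2 fold changes were −2.04, −1.33, −1.16 and −1.08 (adjusted p 8.86e-05, 0.00153, 0.00219 and 0.00418 by edgeR), while Klrd1 (−0.21) and Ifng (−1.29) were no longer called and Prf1 was too low to be tested. In the gamma delta T cells as first chosen, 12 of 15 stress genes were higher in tumors (summed level 4313 to 9134 against 2311 to 2482 CPM) and 2 of 5 tested myeloid genes were higher (93.1 to 4037 against 1.91 to 26.3 CPM). Of 7 epithelial genes 1 was lower (63.5 to 2450 against 243 to 5419 CPM), and the cluster led by the epithelial genes Reg3b and Car1 gave 17.3% of these cells in mucosa and 0.960% in tumors. Their part in the result was not tested.

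In CD8 alpha beta T cells, a single cluster led by Cd8b1 and Gzmk in both tissues, 2 transcripts were lower and 1 was higher. Of 4626 genes 5.17% were called lower and 8.11% higher. Tumor 3 had 14 such cells and was not used. Cd160 was at 433.3, 565.3 and 526.7 CPM in mucosa and at 110.8 to 413.7 CPM (median 177.3) in tumors. All 9 tumors lay below the mucosa, as for 7.35% of genes, tumor 7 closest (log2 fold change −1.25, SE 0.23, adjusted p 0.000468 by edgeR). Cd7 was at 815.6, 968.6 and 570.9 CPM in mucosa and at 101.7 to 245.9 CPM (median 168.7) in tumors. Its tumor means by mouse were close together, 168 ± 2.29 against 785 ± 201 CPM in mucosa (log2 fold change −2.09, SE 0.20, adjusted p 9.35e-09 by edgeR).

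Klrd1 went the other way in the same CD8 alpha beta T cells. It was at 280.4, 459.5 and 224.9 CPM in mucosa and at 472.7 to 644.3 CPM (median 532.3) in tumors. All 9 tumors lay above all 3 mucosa samples, as for 5.32% of genes (log2 fold change 0.88, SE 0.20, adjusted p 0.00338 by edgeR), so the receptor chain that was lower in the pool was higher here. The call was lost without mucosa sample 1 (adjusted p 0.0702) and with cells chosen by receptor UMIs. Gzmb averaged 1298 ± 298 CPM in tumors and 842 ± 305 CPM in mucosa and missed the threshold (log2 fold change 0.76, SE 0.28, adjusted p 0.0709 by edgeR). It was called higher with no filter on low counts and without mucosa sample 3 or tumor 7, 8 or 10. Gzma, Prf1, Nkg7, Ctsw and Ifng were not called, though Ctsw was called lower with cells chosen by receptor UMIs and without tumor 2. Stress genes summed to 3312 to 4972 CPM in these tumor cells and to 1880 to 2301 CPM in mucosa. All 3 tested myeloid genes were higher (103 to 634 against 1.92 to 19.1 CPM) and 1 of 2 tested epithelial genes lower (57.2 to 119 against 206 to 2173 CPM). Their part was not tested.

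NK cells formed a cluster led by Klra4 and Klra8 (560 tumor and 40 mucosa cells) and one led by Gzmc and Ncr1 (226 and 179 cells). Both met the marker rule for NK cells but differed in other markers. Eomes had a UMI in 31.2% of cells of the Klra4 cluster and 3.21% of the Gzmc cluster, and Itgae in 0.667% and 10.1%. The comparison of all NK cells therefore sets mostly Eomes-poor mucosal cells against tumor cells mostly of the Klra4 cluster. In tumors 3 of the 9 transcripts were lower and none higher, against 13.3% of 3677 genes called lower. Cd160 was at 835.2, 796.2 and 812.4 CPM in mucosa and at 38.29 to 142.3 CPM (median 75.71) in tumors. The mean was 10.04-fold lower with every tumor below the mucosa, as for 9.95% of genes (log2 fold change −3.18, SE 0.22, adjusted p 5.17e-12 by edgeR). Cd7 was at 1330, 1160 and 1229 CPM in mucosa and at 162 to 475.9 CPM (median 305.4) in tumors, a log2 fold change of −1.92 (SE 0.20, adjusted p 7.82e-09 by edgeR). Ctsw was at 1402, 1345 and 1540 CPM in mucosa and at 425 to 801.4 CPM (median 659.4) in tumors. Its log2 fold change was −1.06 (SE 0.18, adjusted p 1.84e-05 by edgeR), and these 3 calls were kept whichever library was left out.

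The granzymes, Prf1 and Ifng were not called in NK cells. Gzma was at 4207, 2236 and 1693 CPM in the mucosa of mice A, B and C and at 1414 to 7515 CPM (median 4579) in tumors. Of the tumors 6 lay above all mucosa samples and 2 below all (log2 fold change 0.78, SE 0.51, adjusted p 0.275 by edgeR). Prf1 averaged 162 ± 25.3 CPM in tumors and 221 ± 110 CPM in mucosa (log2 fold change −0.11, SE 0.41, adjusted p 0.873). Ifng was at 82.49, 189.8 and 88.06 CPM in mucosa and at 77.13 to 4442 CPM (median 224.2) in tumors. Tumor 10 alone held 1007 of the 1731 tumor UMIs, and the difference was not called (log2 fold change 2.55, SE 1.44, adjusted p 0.208 by edgeR). Gzmb was below all mucosa samples in 9 of 10 tumors and above them in tumor 10 (log2 fold change −0.70, adjusted p 0.29 by edgeR, −0.90 and 0.0672 without tumor 10). Nkg7 was not called (log2 fold change −0.42, adjusted p 0.156) but was with the mouse as a block (adjusted p 0.0247 by edgeR). Klrd1 was not called (log2 fold change −0.34, adjusted p 0.224) but was called lower with cells chosen by receptor UMIs (−0.77, adjusted p 0.0193 by edgeR).

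Most NK cells of tumors were in the Klra4 cluster and most of mucosa in the Gzmc cluster. In tumors the former held 7142 CPM of Gzma and 235 CPM of Prf1, the latter 330 and 76.5 CPM. Within the Gzmc cluster alone, 7 tumors against 3 mucosa samples, Cd160, Cd7, Ctsw and Nkg7 were lower (log2 fold changes −2.47, −1.35, −0.59 and −0.85), against 5.82% of 2113 genes called lower. Gzma there had a log2 fold change of −2.97 that was not called (adjusted p 0.144 by edgeR), opposite in sign to that of both clusters together. The summed stress genes were at 5701 to 10530 CPM in tumor NK cells and at 2392 to 3180 CPM in mucosa. All 3 tested epithelial genes were lower (48.5 to 213 against 234 to 2176 CPM) and 2 of 3 tested myeloid genes higher (106 to 765 against 5.27 to 272 CPM). Their part was not tested.

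CD4 T cells, which were mostly in clusters led by Ramp3, Foxp3 and Gstm5 in tumors and in one led by Izumo1r in mucosa, were next compared. Cd7 was at 25.19, 99.68 and 85.86 CPM in mucosa and at 1.546 to 36.66 CPM (median 10.6) in tumors. It was the only one of the 9 called lower, against 4.36% of 8162 genes (log2 fold change −2.21, SE 0.57, adjusted p 0.026 by edgeR). Tumors and mucosa overlapped, and the call was lost with the mouse as a block (adjusted p 0.0603) and without mucosa sample 1 or 3. Klrd1 was at 8.397, 28.48 and 35.6 CPM in mucosa, on 26 UMIs in all, and at 43.29 to 258.9 CPM (median 125) in tumors. All 10 tumors were above the mucosa, as for 5.56% of genes, but the test missed the threshold (log2 fold change 2.51, SE 0.76, adjusted p 0.0588 by edgeR). Klrd1 was called higher with DESeq2, with the tumors of each mouse summed, with doublets kept and without tumor 3 or 10. Cd160 was at 50.26, 16.79 and 153.1 CPM in mucosa samples 1, 2 and 3 and at 4.132 to 33.45 CPM in tumors, with overlap, and was not called (log2 fold change −2.07, adjusted p 0.055 by edgeR). It was called lower with DESeq2, with tumors summed, with doublets kept, with cells chosen by receptor UMIs and without mucosa sample 2 or tumor 2 or 8. Gzmb averaged 344 ± 44.4 CPM in tumors and 219 ± 101 CPM in mucosa and was not called (log2 fold change 0.81, adjusted p 0.221 by edgeR), but was called higher with the tumors of each mouse summed (adjusted p 0.046). Ifng averaged 332 ± 103 CPM in tumors and 351 ± 127 CPM in mucosa. By cluster, the tumor CD4 T cells led by Gstm5 had 774 CPM of Ifng, and the regulatory T cells 682 CPM of Gzmb but 36.1 CPM of Ifng. In CD4 T cells 10 of 15 stress genes were higher in tumors (4926 to 6916 against 2679 to 3574 CPM), 4 of 6 tested epithelial genes were lower (65.2 to 242 against 212 to 2612 CPM) and 2 of 5 tested myeloid genes higher (142 to 774 against 6.28 to 50.4 CPM). Their part was not tested.

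**Figure D3:**
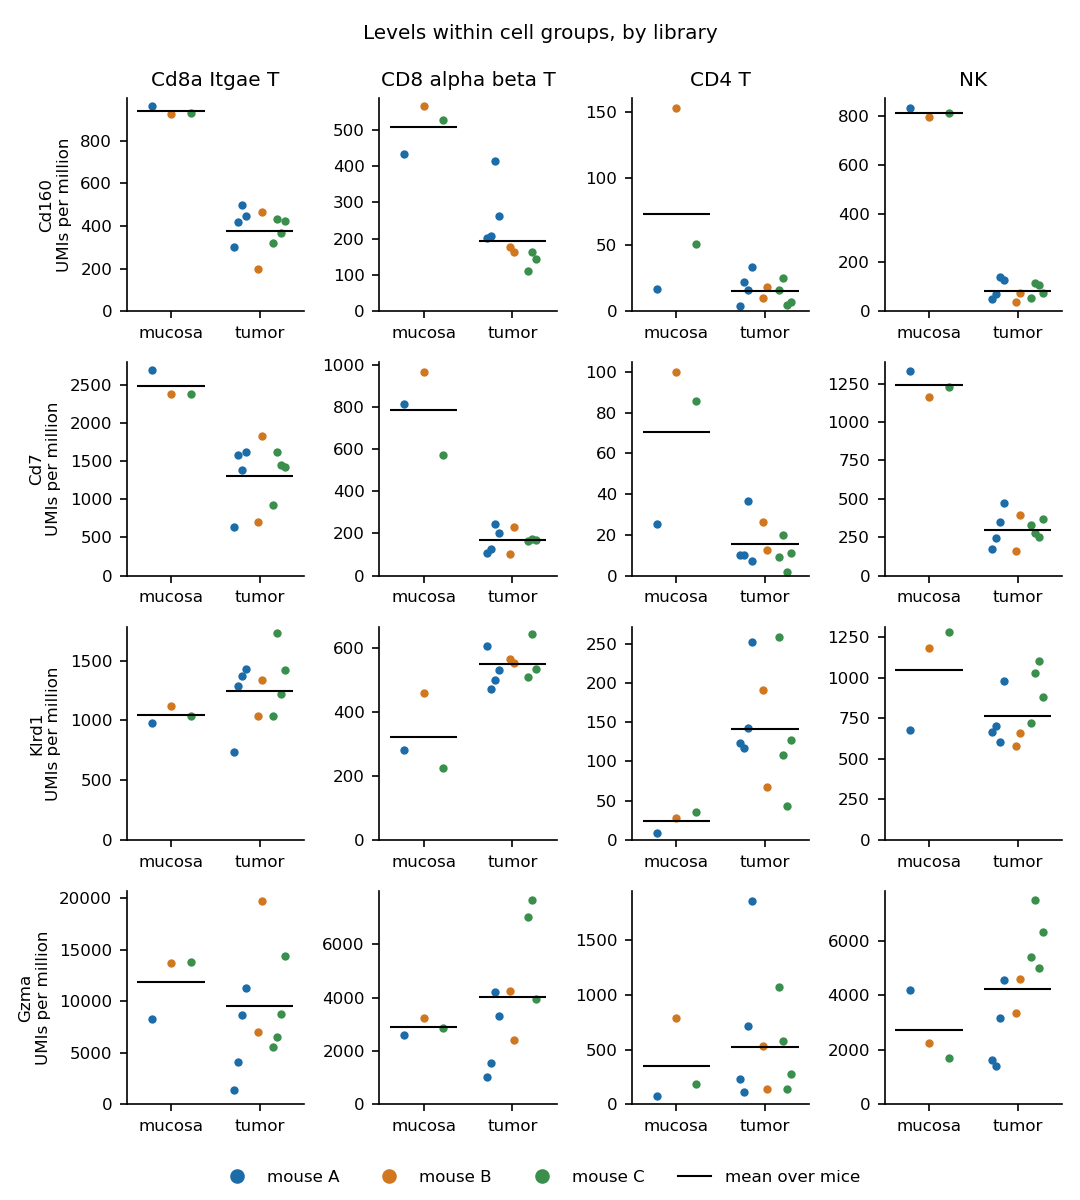
Levels of Cd160, Cd7, Klrd1 and Gzma (rows) within Cd8a Itgae T, CD8 alpha beta T, CD4 T and NK cells (columns) of each library, in CPM on linear axes from 0, colored by mouse, with a line at the mean over mice. Cd160 and Cd7 of tumors sit below all mucosa samples in Cd8a Itgae T, CD8 alpha beta T and NK cells, Klrd1 sits above them in CD8 alpha beta T and CD4 T cells, and Gzma overlaps in every group.

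Whether the tissue difference itself depended on the cell group was tested by interaction terms with the library as a block. Cd7 differed less between tissues in Cd8a Itgae T cells than in CD8 alpha beta T cells, by 1.28 on the log2 scale (SE 0.16, adjusted p 3.83e-06 by edgeR), one of 17 such genes (0.312% of those tested). Against NK cells, Cd8a Itgae T cells had smaller differences of Cd160 (1.99, SE 0.18, adjusted p 7.35e-14) and Cd7 (1.07, SE 0.16, adjusted p 3.7e-06), and the difference of Klrd1 stood 0.68 higher (SE 0.17, adjusted p 0.0192 by edgeR), where 2.78% of genes were called. Between CD8 alpha beta T and NK cells (2.28% called), Cd160 differed by 1.85 (SE 0.20, adjusted p 4.54e-10), Klrd1 by 1.30 (SE 0.21, adjusted p 0.000606) and Ctsw by 0.58 (SE 0.14, adjusted p 0.0124 by edgeR). The Klrd1 call between Cd8a Itgae T and NK cells was lost without mucosa sample 1 (adjusted p 0.312) or 3 (0.175), and that of Ctsw without mucosa sample 1 (0.0759) or 2 (0.124). No interaction of Gzma, Gzmb, Prf1, Nkg7 or Ifng was called. The clusters behind these groups differed by tissue. NK cells were 560 of the Klra4 and 226 of the Gzmc cluster in tumors, but 40 and 179 in mucosa. In the Gzmc cluster alone the changes of Cd160, Cd7 and Ctsw were smaller than in all NK cells, as given above. Cd8a Itgae T cells also came from different clusters by tissue. The part of this mix in the interaction terms was not tested.

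**Figure D4:**
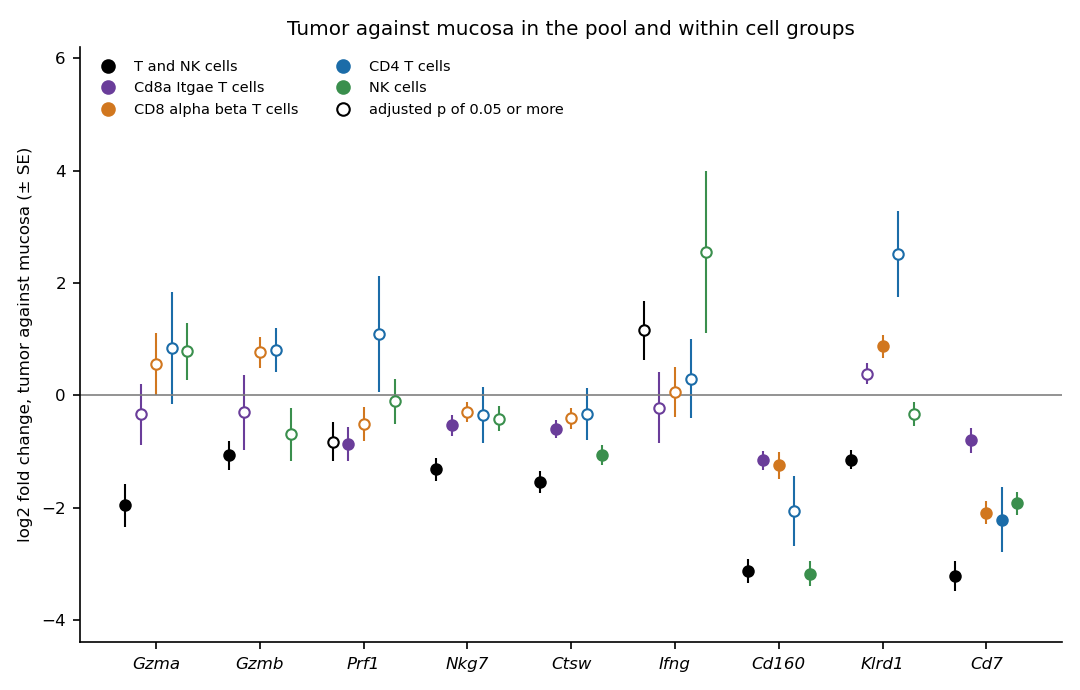
Log2 fold change of tumor against mucosa with its standard error (bars) for each of the 9 transcripts in the pool of T and NK cells and in 4 cell groups, filled where the adjusted p was under 0.05 and open elsewhere. Gzma is −1.96 in the pool but open in all 4 groups, while Cd7 is filled below 0 in all of them, and Klrd1 is −1.15 in the pool and 0.88 in CD8 alpha beta T cells.

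The 4 groups were also weighted equally in each library. This holds the mix of groups equal but not the mix of clusters within a group, which differed between tissues. The level of a library was then the mean over groups of log2(CPM + 1), compared by an exact two-sided permutation within mice over 60 assignments, 9 tumors against 3 mucosa samples. Cd160 was lower by 2.02, Cd7 by 1.84 and Ctsw by 0.75 on this scale, each in 9 of 9 tumors, and Klrd1 was higher by 0.82 in 9 of 9 (p 0.0167 each, the smallest these assignments can give). The share of all genes that reach this p was not computed. The Klrd1 value rests on CD4 T cells, where the difference was 2.53 on 26 mucosal UMIs, against 0.83 in CD8 alpha beta T cells, 0.22 in Cd8a Itgae T cells and −0.44 in NK cells. Without the CD4 T cells it was 0.20 (p 0.2), while Cd160, Cd7 and Ctsw stayed at −2.10, −1.79 and −0.81 (p 0.0167 each). Nkg7 differed by −0.53 (p 0.05, lower in 7 of 9), and by −0.54 without the CD4 T cells (p 0.0333). The granzymes missed the threshold, Gzma with a difference of 0.29 (p 0.55) and Gzmb with −0.07 (p 0.817), as did Prf1 (−0.12) and Ifng (0.16).

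The share of T and NK cells with a UMI of each transcript was compared after every cell was thinned to 1000 UMIs, since tumor cells were deeper (median 3445 UMIs against 1733). This used 7476 tumor and 4345 mucosa cells and left out 190 and 520 shallower ones. Cd7 was found in 3.80% to 13.8% of tumor cells (median 9.06%) and in 63.8% to 73.5% of mucosal cells, a difference of −61.1 percentage points. Cd160 was found in 2.91% to 6.32% of tumor cells (median 5.21%) against 42.7% to 46.6%. For Gzma the share was 7.16% to 24.3% (median 15.01%) against 30.01% to 42.7%, and for Gzmb 12.3% to 21.0% (median 16.7%) against 27.8% to 36.6%. Nkg7, Ctsw and Klrd1 differed by −43.7, −40.0 and −27.6 points. These 7 differences had p 0.0133 each, the smallest of 75 assignments in the exact permutation, and held in all 10 tumors. How many of all genes reach this p was not computed. In the sums of T and NK cells every tumor lay below every mucosa sample for 20.1% of genes. Unthinned, Cd160 was in 7.10% to 17.1% of tumor cells and in 52.2% to 69.6% of mucosal cells. In epithelial cells, which should lack these transcripts, thinned shares were at most 0.826%. Prf1 differed by −3.07 points (p 0.0267) and Ifng by 1.42 points (p 0.533).

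Detection of both granzymes in 1 cell was counted as well. Of thinned T and NK cells with Gzma, 47.8% ± 1.69 (SD, 3 mice) also had Gzmb in tumors and 69.3% ± 6.57 in mucosa, and of those with Gzmb 40.4% ± 3.43 and 78.3% ± 5.18 also had Gzma. Within Cd8a Itgae T cells the tissues were close, 72.8% ± 10.99 against 71.1% ± 6.995 for Gzmb in cells with Gzma and 76.5% ± 8.69 against 80.8% ± 7.75 for Gzma in cells with Gzmb. In CD8 alpha beta T cells these shares were 59.1% ± 6.14 against 52.4% ± 1.33 and 47.8% ± 5.11 against 47.4% ± 4.46. In tumor NK cells with Gzmb the share with Gzma was 82.4%, in tumor CD4 T cells 9.90%. The Il17a T cells led by Trdv4 numbered 260 in tumors. In the 5 tumors of 2 mice with at least 20 of them (196 cells), they had 2061 CPM of Gzmb but 481 CPM of Gzma. Of cells with Cd160, 38.9% in tumors and 82.3% in mucosa also had Cd7. Among Cd8a Itgae T cells with Cd7, 31.8% in tumors and 56.4% in mucosa also had Cd160, and among NK cells with Cd7 9.30% and 50.8%. The 9.30% of tumor NK cells is a mean over mice from 11 of 147 cells. All these shares are given without a test, and each depends on how common the second transcript is in the group. Those of the pool also depend on the mix of cells, and those within Cd8a Itgae T and NK cells on the mix of clusters, which differed by tissue.

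Levels across cells were compared over 51 sums of a library and cell group, which share libraries and depth, so the rank correlations (Spearman rho) are a description. Cd160 and Cd7 varied together (rho 0.87), as did Gzma and Klrd1 (0.797), and Ifng was negative with all 8 others, down to −0.491 with Klrd1. Gzmb was closest to Nkg7 (0.748) and Gzma (0.715). Among 5154 genes outside the 9, the closest to Gzma, Gzmb and Nkg7 was the chemokine Ccl5 (rho 0.798, 0.662 and 0.830), the closest to Prf1 was Eomes (0.819), to Ctsw Dapk2 (0.887), to Ifng Casp4 (0.654), to Cd160 Jaml (0.893), to Klrd1 Chn2 (0.867) and to Cd7 Tcrg-C4 (0.917). Eomes and Tcrg-C4 are among the markers that named the cell groups, so their values are not independent of the grouping.

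Outside T and NK cells, 2 of the 9 transcripts were abundant in tumors. Of all tumor UMIs only 45.4% of Klrd1 and 60.2% of Cd7 were in T and NK cells, against 97.9% and 97.8% in mucosa, while Gzma, Nkg7, Cd160 and Ifng had 96.8% to 98.7% there in both tissues. A dendritic cluster led by Cox6a2, Siglech and Ccr9, of 234 tumor and 10 mucosa cells, had 897 CPM of Klrd1 and 518 CPM of Cd7 in the 3 tumors with at least 20 of its cells (162 cells, all from 1 mouse), with a UMI in 88.3% and 76.5% of cells. A larger cluster led by Cst3 and Ccl17 (2452 cells of 10 tumors) met the marker thresholds of the dendritic class alone. It was left unnamed because Klrk1, a marker of the NK list, stood among its leading genes and no dendritic marker did. The cluster had 421 ± 66.8 CPM of Klrd1 and 114 ± 19.9 CPM of Cd7 (SD over 3 mice), with UMIs in 67.0% and 25.04% of cells. Nkg7 was at 1.30 CPM in that cluster, with a UMI in 0.571% of cells, whereas in the T and NK cells of tumors Nkg7 averaged 657 CPM and Klrd1 320 CPM. Unthinned epithelial cells of tumors had a UMI of Klrd1 in at most 0.781% and of Cd7 in at most 2.11% of cells. A dendritic cluster led by Fscn1 and Ccr7 had Klrd1 (153 ± 43.6 CPM, 834 cells) but 1.78 CPM of Cd7.

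Plasma cells had UMIs of some of the 9. In the tumor cells of the cluster led by Jchain and Igkc (3311 cells, median 15867 UMIs), Ctsw was at 18.2 ± 2.81 CPM, Gzma at 9.78 ± 2.35 CPM and Prf1 at 6.23 ± 0.40 CPM, with UMIs in 19.3%, 11.3% and 7.85% of cells. With plasma and epithelial cells both thinned to 5000 UMIs, Ctsw was found in 4.72% to 15.4% of plasma cells and at most 0.318% of epithelial cells of a tumor, Gzma in 2.15% to 7.55% and at most 1.02%, and Prf1 in 1.28% to 4.93% and at most 0.109%. Gzmb had 3 UMIs, Nkg7 9 UMIs and Cd160 0 UMIs in the same plasma cells. In the 336 mucosal plasma cells (median 7670 UMIs) Gzma, Ctsw and Prf1 were at 48.4, 25.9 and 21.9 CPM, with 3 UMIs of Gzmb, 20 of Nkg7 and 0 of Cd160. A count of 0 allows Cd160 UMIs in up to 0.0906% of the tumor and 0.893% of the mucosal plasma cells, by counting error alone. Of the Prf1 UMIs 68.9% were in T and NK cells in tumors and 86.3% in mucosa.

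**Figure D5:**
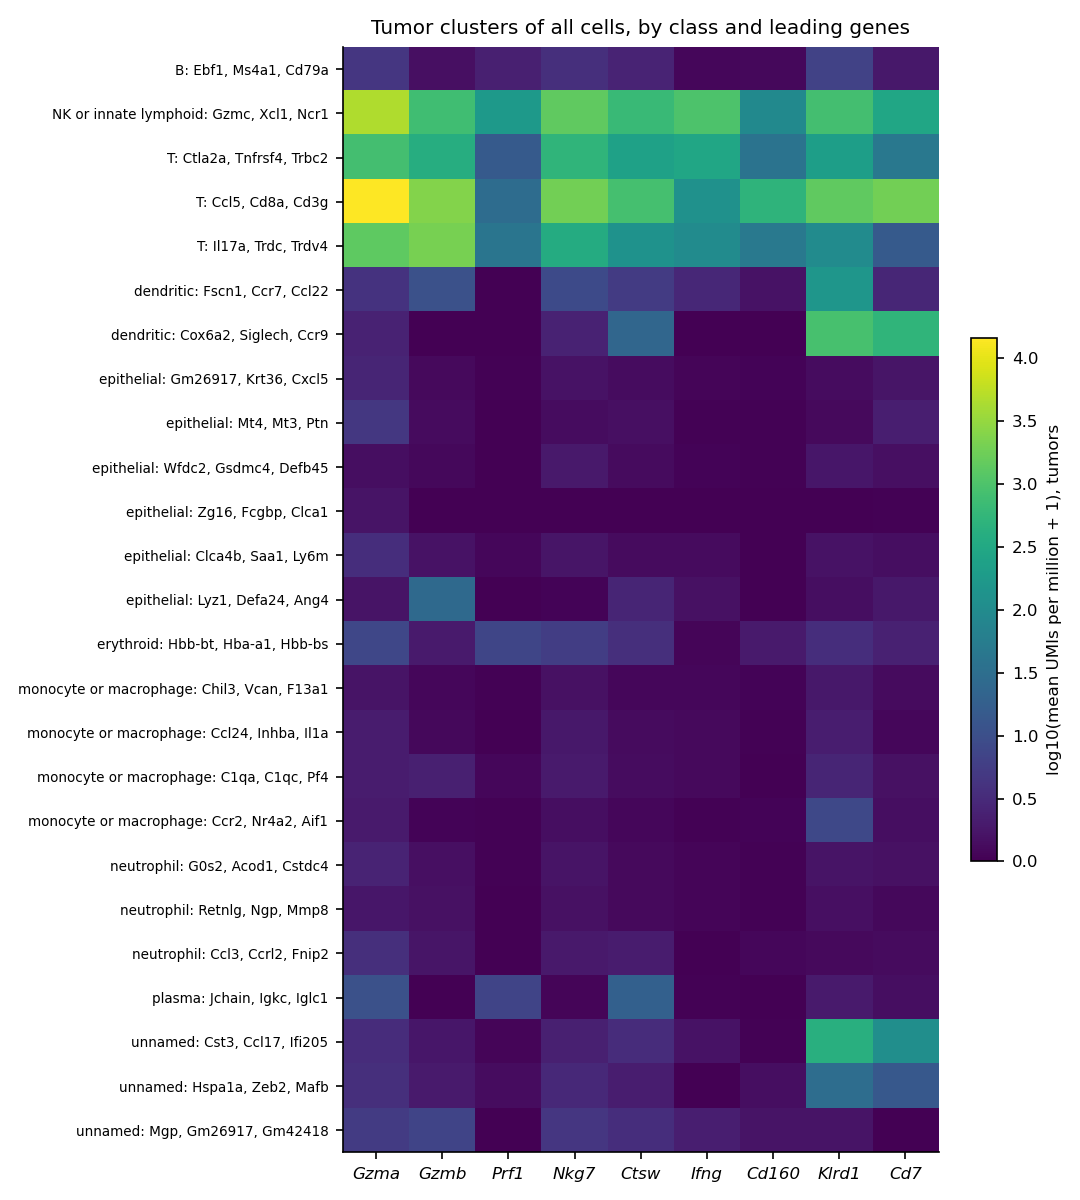
Heat map of log10(mean CPM + 1) of the 9 transcripts (columns) in the tumor clusters of all cells (rows, by class and leading genes). Most T and NK clusters are bright in most columns, the clusters led by Siglech, by Cst3 and by Fscn1 are bright for Klrd1 (897, 421 and 153 CPM), and the plasma cluster has low Gzma, Prf1 and Ctsw. A bright Gzmb cell in the epithelial cluster led by Lyz1 comes from 84 UMIs in 0.286% of its cells.

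In sums over all retained cells, without any cell naming, 6 of the 9 transcripts were lower in tumors, against 33.6% of 17340 genes: Gzma, Gzmb, Nkg7, Ctsw, Cd160 and Cd7. Cd160 averaged 3.83 ± 0.745 against 41.0 ± 21.7 CPM, and Cd7 14.6 ± 1.70 against 101 ± 45.6 CPM. Klrd1 averaged 35.6 ± 9.18 against 46.4 ± 25.7 CPM and was not called (log2 fold change −0.33, SE 0.40, adjusted p 0.474 by edgeR), nor were Prf1 (−0.66) and Ifng (1.03). Without mucosa sample 1, Gzmb (adjusted p 0.192) and Nkg7 (0.0715) were no longer called. With the tumors of each mouse summed, Gzmb was not called while Prf1 was called lower and Ifng higher, and Prf1 was also called without tumor 4. Stress and myeloid genes were all higher in these sums (4296 to 7368 against 1574 to 1696 CPM, and 18697 to 36223 against 121 to 159 CPM), and 5 of 7 epithelial genes were lower (3037 to 7775 against 11188 to 19683 CPM). Their part was not tested.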

How the data were processed

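The sources name Cell Ranger for read processing, version 6.0.0 in the submitters' processing notes and an earlier version in the study's methods, so the version is uncertain. The authors deposited unnormalized UMI counts for the barcodes Cell Ranger called as cells in each of 13 libraries (10x Genomics 3′ v3.1 chemistry; 57221300 to 116133079 UMIs). Pooled or duplicate libraries are not described.

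Barcodes with at least 500 UMIs, 200 genes and under 25% mitochondrial UMIs were kept, and the highest doublet scores were removed at 0.8% per 1000 barcodes. Cells were clustered by the Leiden method (resolution 1, leidenalg 0.10.2) without the 9 genes, and T and NK cells were clustered again. Clusters were named by marker lists, with naming thresholds set after profiles were seen. Counts were summed per library and group (at least 20 cells) and tested with edgeR 4.0.16 (TMM, filterByExpr, robust quasi-likelihood, adjusted p under 0.05). Alternatives were DESeq2 1.42.0, no low-count filter, the mouse as a block, tumors summed per mouse, doublets kept, a 10% mitochondrial limit, receptor-UMI gates, resolution 2 and leaving out each library. The fits of gamma delta T cells and of the Gzmc cluster alone were not repeated under them. Scripts were tested on simulated data.

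Libraries were grouped by the titles in the labels and assigned to mice by animal codes there. Pairing follows the animal code rather than the replicate number. Across genes, in T and NK sums, the deviations of a mouse's tumors and of its mucosa from their group means had correlations of 0.238 (mouse A), 0.0875 (B) and 0.244 (C). Unmatched mice had −0.270 to 0.0354, and mucosal deviations cancel over the mice by construction, which lowers unmatched values. Tumors of mouse B were closer to another mouse's mucosa in CD4 T cells (0.0353 against 0.0151) and in all cells (0.0363 against 0.0295). The tumors of one mouse are separate tumors, so p-values over libraries measure spread between samples of 3 mice. The members and all gene lists were chosen with earlier results of these data known. Named genes outside the 9 are the 2 with the largest called change of each list, and the ones most alike in rank correlation (genes with a mean of at least 20 CPM). P-values for shares of cells were not adjusted over the 9 genes, and gamma delta T clusters held too few tumor cells to test. The Cd8a Itgae group, the comparison at equal weights without CD4 T cells and the thinning of plasma cells to 5000 UMIs were added after seeing the data.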

Additional observations from a re-analysis of the deposited data

Results flagged for a closer look

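In 6 of 54 groups of 9 or 10 tumors, 1 tumor stood apart from the rest by Dixon's criterion at the 95% level, against 2.7 at a nominal 1 in 20. The criterion assumes normally distributed values and was applied to linear CPM, and the groups share cells, so the nominal number is a rough guide only. Each flagged value was the highest of its group. Tumor 10 did so for 3 of them: Ifng in NK cells (4442 CPM from 1007 UMIs, next tumor 506 CPM), Gzmb in NK cells (1553 CPM, next 836 CPM) and Gzmb in Cd8a Itgae T cells (4163 CPM, next 2052 CPM). Tumor 7 had 436.4 CPM of Ifng in Cd8a Itgae T cells (next 83.9 CPM) and 413.7 CPM of Cd160 in CD8 alpha beta T cells (next 264 CPM). Tumor 4 had 70.1 CPM of Prf1 in all T and NK cells (next 36.1 CPM).

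The tissue difference was unequal between cell groups, by interaction terms in edgeR, for 4 transcripts. For Cd160 it was 1.99 higher on the log2 scale in Cd8a Itgae T cells than in NK cells and 1.85 higher in CD8 alpha beta T cells than in NK cells. For Cd7 it was 1.28 higher in Cd8a Itgae T cells than in CD8 alpha beta T cells and 1.07 higher than in NK cells. For Klrd1 it was 1.30 higher in CD8 alpha beta T cells and 0.68 higher in Cd8a Itgae T cells than in NK cells. For Ctsw it was 0.58 higher in CD8 alpha beta T cells than in NK cells, a call lost without mucosa sample 1 or 2. The Klrd1 call between Cd8a Itgae T and NK cells was lost without mucosa sample 1 or 3. The clusters within Cd8a Itgae T and NK cells differed by tissue, and the part of this mix was not tested.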

How the results depend on the processing

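In T and NK cells, all 7 calls were kept under every alternative setting of the processing, and leaving out 1 library gave 7 to 8 called transcripts. In CD8 alpha beta T cells 3 were called (2 to 4), in NK cells 3 (3 to 3), in all cells 6 (4 to 7), and 7 interactions (5 to 8). In Cd8a Itgae T cells 5 were called, 3 with the tumors of each mouse summed, 4 with DESeq2 or receptor UMIs (Prf1 and Nkg7 lost, Ifng gained) and 3 to 5 without 1 library. In gamma delta T cells 7 were called, and 4 without the Trdv4 cluster, an alternative chosen after seeing the data. No other alternative, and no leaving out of a library, was run for gamma delta T cells or for the Gzmc cluster of NK cells alone. In CD4 T cells 1 was called, 3 with DESeq2, 0 with no filter, 4 with tumors summed, 3 with doublets kept, 2 with cells chosen by receptor UMIs and 0 to 2 without 1 library. The causes were not tested.

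With the mouse as a block, which pairs tumors and mucosa, 7 transcripts were called in T and NK cells, 4 in Cd8a Itgae T cells, 3 in CD8 alpha beta T cells, 0 in CD4 T cells, 4 in NK cells and 6 in all cells. In the same order, the genes called in either direction were 4743 of 10684, 1098 of 3978 and 730 of 4626. They were 953 of 8162 in CD4 T cells, 1166 of 3677 in NK cells and 12398 of 17340 in all cells.

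Differences that changed sign were not called before or after. With tumors summed these were Gzmb in Cd8a Itgae T cells (0.10) and Prf1 in NK cells (0.0294, and 0.00947 with the 10% mitochondrial limit). In CD8 alpha beta T cells Ifng was at −0.0288 with doublets kept and Gzma at −0.41 with cells chosen by receptor UMIs. In the Gzmc cluster of NK cells alone, Gzma was at −2.97. Without 1 library, the range in CD8 alpha beta T cells was −0.23 to 0.68 for Ifng and −0.96 to 0.0279 for Prf1, in CD4 T cells −0.55 to 0.0987 for Nkg7 and −0.00174 to 0.45 for Ifng, in NK cells −0.48 to 0.24 for Prf1 and in all cells −0.66 to 0.12 for Klrd1. The interaction of CD8 alpha beta T against NK cells then ranged from −0.39 to 0.0248 for Cd7 and from −0.0163 to 0.35 for Nkg7. With groups weighted equally, Gzmb was at 0.0861 without mouse A, Prf1 at 0.15 without mouse B, and Gzma and Ifng at −0.0308 and −0.0778 without mouse C. The share of cells with Ifng differed by −0.99 points when thinned to 2000 UMIs.

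The median log2 fold change over the unfiltered genes in Cd8a Itgae T, CD4 T and all cells was 0.14, −0.26 and 0.32 with DESeq2 and −0.19, 0.31 and 0.28 with edgeR, against 0.00, 0.03 and 0.03 over the filtered genes with edgeR. In Cd8a Itgae T cells the genes called numbered 1080 (612 higher and 468 lower), 2085 with no filter (894 and 1191) and 623 by receptor UMIs. In CD4 T cells 894 were called, 461 by receptor UMIs, 567 without mucosa sample 1 and 464 without mucosa sample 3. In CD8 alpha beta T cells 614 were called, 362 and 378 without the same samples, and in NK cells 1084, 640 without mucosa sample 1. The 3 mucosa samples and the few UMIs in small groups, such as 26 of Klrd1 in mucosal CD4 T cells, limit the precision.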
